A study of Chlamydomonas reinhardtii with 16 samples.

Results

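The genes described here encode photoprotection proteins of the green alga Chlamydomonas reinhardtii. They were chosen by identifier, with earlier results of these data known. The list held 6 genes, and the deposited table of 17301 genes had a row for each of the 6. It named LHCSR1 (Cre08.g365900), a pair of LHCSR3 copies (Cre08.g367500 and Cre08.g367400), PSBS1 (Cre01.g016600), PSBS2 (Cre01.g016750) and LHL4 (Cre17.g740950). Neither the table nor the RefSeq annotation pairs these identifiers with names, so the names are those by which the identifiers were chosen. RNA sequencing of 16 libraries gave the transcript levels. The wild type was strain 4A+, and the mutant was hmox1, a strain defective in heme oxygenase, the enzyme that opens the heme ring to make biliverdin. All cultures grew in the dark on acetate medium (TAP) that contained 0.5% methanol. Cultures either received no further addition or 0.1 mM biliverdin IXα (BV). Cells were harvested before or after white light given for 30 min, at an intensity of 150 µmol photons m-2 s-1. Strain, BV and light made 8 groups of 2 libraries each. Whether both libraries of a group stem from different cultures is not stated in the labels, so the p-values cover only the variation seen between these libraries, and that variation may be technical. hmox1 was the only mutant strain, and its own mutated transcript was not identified here, so the strain labels were not checked by it.

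LHCSR proteins are members of the light-harvesting protein family that dissipate excess absorbed light as heat, the process called energy-dependent quenching. In Chlamydomonas LHCSR3 is the main quencher of cells acclimated to high light, and LHCSR1 also serves in quenching. PSBS is the protein that carries this function in land plants, and in Chlamydomonas it appears transiently when cells meet strong light. LHL4 belongs to the same extended protein family and is known as a light-induced photoprotective protein of the photosystems. Bilins such as BV are linear tetrapyrroles, and the study concerned their part in signalling during greening.

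Libraries held 10213385 to 43414139 reads in genes, as recovered from the steps of the deposited RPKM values (reads scaled to gene length and library total). The lowest number belonged to replicate 2 of lit wild type without BV and the highest to replicate 2 of lit hmox1 without BV. Intervals and limits given for reads cover counting error only. A gene entered the test when it reached 1 RPKM in at least 2 libraries, which 13972 genes did. All 6 photoprotection genes passed, the LHCSR3 copies and PSBS2 through their light libraries alone. Differences were taken between values of log2(RPKM + 1), so that changes of genes with low levels appear smaller than they are. Each difference was tested with limma and Benjamini-Hochberg adjustment over all genes tested, and a gene was called at an adjusted p under 0.05. On the authors' scaling the median gene moved by -0.57 in wild type and -0.35 in hmox1 with light without BV, by 0.13 with BV in the light, and by 0.29 between the strains in the light. The scaling also set how many genes were called in each direction. For light in wild type without BV, 2919 genes were called higher and 8811 lower, against 5773 and 5549 with median-of-ratios scaling. For BV in lit wild type the numbers were 4562 and 1814, against 3073 and 3987. For the strain in the light without BV they were 7479 and 1078, against 3298 and 4602.

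Within 30 min, light took all of these transcripts from low levels in the dark to mean levels that ranked 93rd (LHCSR1) to 1328th (Cre08.g367500) of the 17301 genes in lit wild type without BV. LHCSR1, the quencher with the highest level of the set, stood at 3.83 and 1.72 RPKM in the dark wild-type libraries without BV and at 2134 and 2095 RPKM in the lit ones. On pooled reads this was a 758-fold higher rate (95% interval 634 to 914). The lit libraries therefore stood far above the dark ones, with no overlap. The log2 difference of 9.19 ± 0.49 (SE, adjusted p = 1.4e-07) was the largest of the 13972 genes tested. LHCSR1 reads made up 0.271% and 0.266% of all reads in genes in these lit libraries. The 6 genes together made up 0.548% and 0.519%, against 0.00275% and 0.00244% in the dark.

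The LHCSR3 copies began nearly without reads in the dark. Cre08.g367400 had 4 and 5 reads in the dark wild-type libraries without BV, which is 0.368 and 0.481 RPKM, and stood at 122 and 121 RPKM in the light. Cre08.g367500 had 3 and 1 reads in the dark and stood at 49.8 and 54.6 RPKM in the light. Both copies were thus at or near the limit of detection in the dark, and the lit libraries lay more than 100-fold above it. The log2 differences were 6.43 ± 0.13 (adjusted p = 5.3e-16) for Cre08.g367400 and 5.50 ± 0.12 (adjusted p = 1.1e-15) for Cre08.g367500. As read rates these were 288-fold (151 to 629.5) and 279-fold (109 to 1025).

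PSBS1 stood at 2.12 and 0.997 RPKM in the dark wild-type libraries without BV and at 1000.2 and 849 RPKM in the lit ones. PSBS2 stood at 0.759 and 0.361 RPKM in the dark and at 711 and 590.1 RPKM in the light. Each gene had fewer than 30 reads over both dark libraries and at least 4741 in each lit library. The log2 differences were 8.53 ± 0.47 (adjusted p = 1.4e-07) for PSBS1 and 8.71 ± 0.31 (adjusted p = 1.5e-09) for PSBS2, the 4th and 3rd largest of all genes tested. LHL4 differed from the others in the dark, where it was already at 14.9 and 15.3 RPKM. It stood at 1107 and 1062 RPKM in the light, a log2 difference of 6.08 ± 0.10 (adjusted p = 1.1e-16) and a 72.6-fold higher read rate (67.4 to 78.4).

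The light effect was called in each of the other conditions as well. In hmox1 without BV, LHCSR1 rose from 3.17 and 6.04 RPKM to 1765 and 1855 RPKM, a log2 difference of 8.38 ± 0.49 (adjusted p = 4.3e-07). PSBS1 rose from 0.773 and 2.35 to 571 and 516 RPKM (7.80 ± 0.47, adjusted p = 4.2e-07), and PSBS2 from 0.504 and 1.16 to 444 and 420.2 RPKM (7.91 ± 0.31, adjusted p = 6.1e-09). The lit and dark libraries of these genes lay far apart. Cre08.g367400 rose from 0.112 and 0.275 to 39.8 and 40.3 RPKM (5.11 ± 0.13, adjusted p = 1.4e-14). Cre08.g367500 had 0 and 2 reads in the dark hmox1 libraries without BV and stood at 13.5 and 14.7 RPKM in the light (3.84 ± 0.12, adjusted p = 1.1e-13). LHL4 rose from 20.3 and 21.1 to 734 and 718 RPKM (5.07 ± 0.10, adjusted p = 9.5e-16). Without BV, 6 of the 6 genes were therefore called higher in light in wild type, where 20.9% of all genes tested were, and 6 of 6 in hmox1, where 21.3% were. The median log2 difference of the 6 was 7.48 in wild type and 6.46 in hmox1, beside the median gene given above.

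With BV present, light still raised every one of the 6, but the rises differed in size. LHCSR1 rose by 7.40 ± 0.49 in wild type (adjusted p = 8.7e-07) and by 7.75 ± 0.49 in hmox1 (adjusted p = 1.5e-06), the largest log2 difference of all genes tested in both strains. LHL4 rose by 4.56 ± 0.10 in wild type (adjusted p = 2.6e-15) and by 3.70 ± 0.10 in hmox1 (adjusted p = 2e-13). PSBS2 rose by 3.98 ± 0.31 in each strain (adjusted p = 9.6e-07 and 2.3e-06). For PSBS1 the rise was 3.66 ± 0.47 in wild type (adjusted p = 7.7e-05) and 3.05 ± 0.47 in hmox1 (adjusted p = 4.4e-04). The LHCSR3 copies had the smallest log2 differences on this scale. Cre08.g367400 gained 1.00 ± 0.13 in wild type (adjusted p = 2.4e-06) and 1.53 ± 0.13 in hmox1 (adjusted p = 4.3e-08), and Cre08.g367500 gained 0.59 ± 0.12 (adjusted p = 2.5e-04) and 0.60 ± 0.12 (adjusted p = 3.4e-04). These values depended on the pseudocount. With 0.1 in place of 1 they were 2.17 and 3.62 for Cre08.g367400 and 1.76 and 2.25 for Cre08.g367500, and with voom on recovered reads 2.46, 3.97, 2.17 and 3 in the same order. As read rates in wild type, light raised Cre08.g367400 by 6.14-fold (2.97 to 14.3) and Cre08.g367500 by 5.28-fold (1.95 to 17.9), against 24.9-fold for LHL4, 35.4-fold for PSBS1 and 95.1-fold for PSBS2. In hmox1 the order was not kept, with 14.7-fold (4.77 to 73.1) for Cre08.g367400 and 12.9-fold (2.02 to 538) for Cre08.g367500 beside 14.6-fold for PSBS1 and 13.3-fold for LHL4. All 6 were called higher in wild type with BV and all 6 in hmox1 with BV, where 23.4% and 20.4% of genes tested were. The comparisons of light with and without BV share no library.

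**Figure D1:**
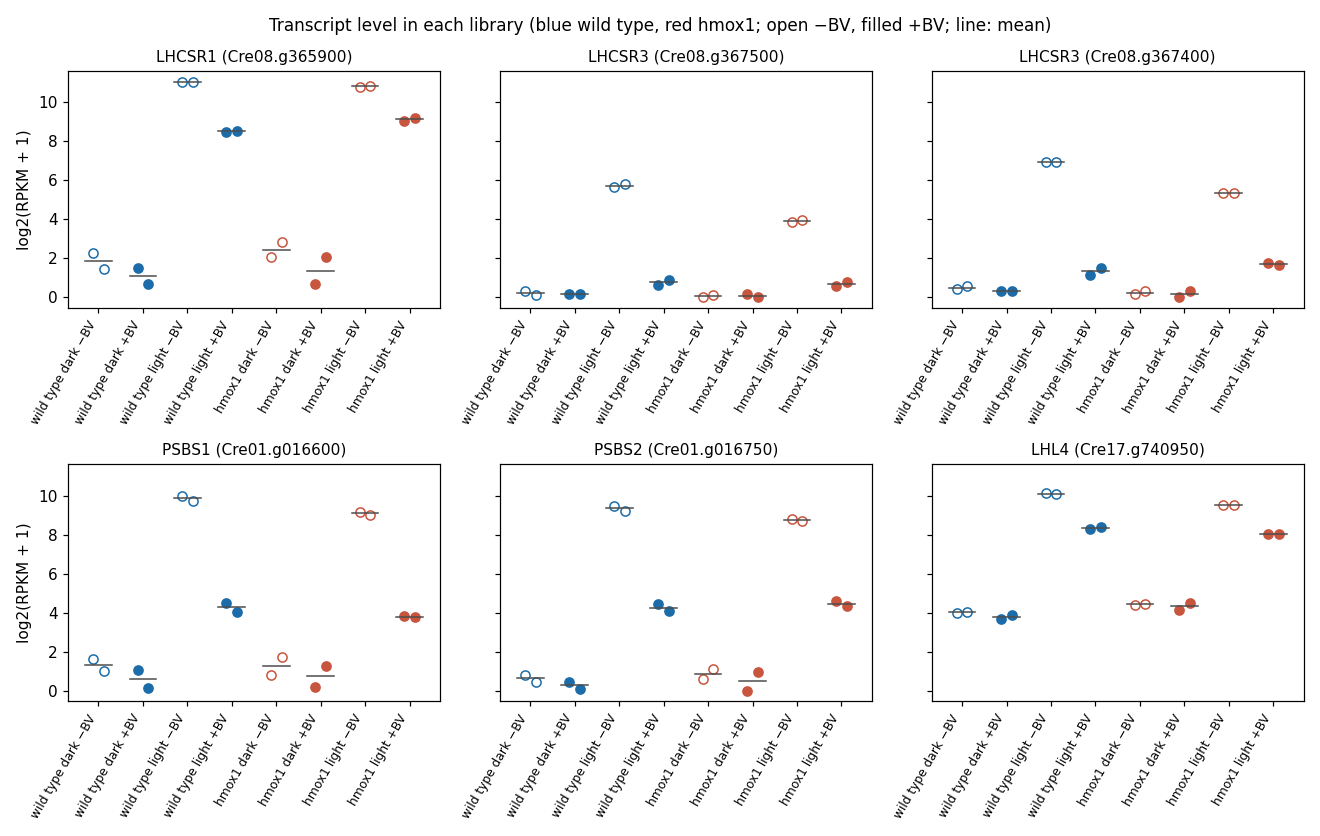
Transcript level of the 6 genes in each of the 16 libraries, as log2(RPKM + 1), with 1 panel per gene; points are libraries and lines are group means. Each gene is highest in the lit libraries without BV. On this scale the LHCSR3 copies lie close to their dark levels in lit libraries with BV. Their read rates with BV were still higher in light than in the dark. The ratio was 6.14-fold in wild type and 14.7-fold in hmox1 for Cre08.g367400, and 5.28-fold and 12.9-fold for Cre08.g367500.

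BV lowered all 6 transcripts in the light, in comparisons that share their lit libraries with those of light above. The LHCSR3 copies and the PSBS genes lost nearly all of their light level, while LHCSR1 and LHL4 kept a larger part. In bulk libraries, a lower level in every cell and a lower share of cells with the transcript cannot be told apart. Cre08.g367400 stood at 1.22 and 1.85 RPKM in lit wild type with BV, from 17 and 29 reads, against 122 and 121 RPKM without BV. Its mean with BV was 1.27% of the mean without BV. It fell by 5.60 ± 0.13 on the log2 scale (adjusted p = 2.2e-14), the largest fall of the 13972 genes tested. Cre08.g367500 stood at 0.563 and 0.873 RPKM, from 8 and 14 reads, which was 1.37% of the level without BV. It fell by 4.96 ± 0.12 (adjusted p = 2.4e-14).

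PSBS1 stood at 21.7 and 15.4 RPKM in lit wild type with BV, 2.01% of its level without BV, and fell by 5.58 ± 0.47 (adjusted p = 1.7e-05). PSBS2 stood at 20.8 and 15.7 RPKM, 2.81% of its level without BV, and fell by 5.09 ± 0.31 (adjusted p = 8.8e-07). The LHCSR3 and PSBS genes thus had the 4 largest falls of all genes tested in this comparison. LHCSR1 stood at 352 and 374 RPKM, which was 17.2% of its level without BV, and fell by 2.54 ± 0.49 (adjusted p = 0.003). LHL4 stood at 313 and 331 RPKM, 29.7% of its level without BV, and fell by 1.75 ± 0.10 (adjusted p = 1.1e-09). All 6 were called lower, where 13.0% of all genes tested were, and the median of the 6 was -5.02.

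In hmox1 the same addition also lowered all 6 in the light, where 11.2% of genes tested were called lower. PSBS1 stood at 13 and 12.5 RPKM with BV, 2.35% of the level without BV, and fell by 5.31 ± 0.47 (adjusted p = 3.7e-05). PSBS2 stood at 23 and 19 RPKM, or 4.86%, and fell by 4.31 ± 0.31 (adjusted p = 4.7e-06). PSBS1 was thus lower in both libraries than in wild type with BV, and PSBS2 overlapped with wild type. Cre08.g367400 stood at 2.38 and 2.12 RPKM, 5.62% of its level without BV, and fell by 3.66 ± 0.13 (adjusted p = 4.2e-12). Cre08.g367500 stood at 0.485 and 0.731 RPKM, 4.31% of its level without BV, and fell by 3.23 ± 0.12 (adjusted p = 6.5e-12). LHL4 stood at 257 and 260.3 RPKM, or 35.6%, and fell by 1.48 ± 0.10 (adjusted p = 1e-08). LHCSR1 kept 532 and 584 RPKM, or 30.8%, and fell by 1.70 ± 0.49 (adjusted p = 0.027). The libraries of LHCSR1 with and without BV lay far apart, but this call was lost when any 1 of the 4 libraries compared was left out, with adjusted p from 0.082 to 0.11.

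**Figure D2:**
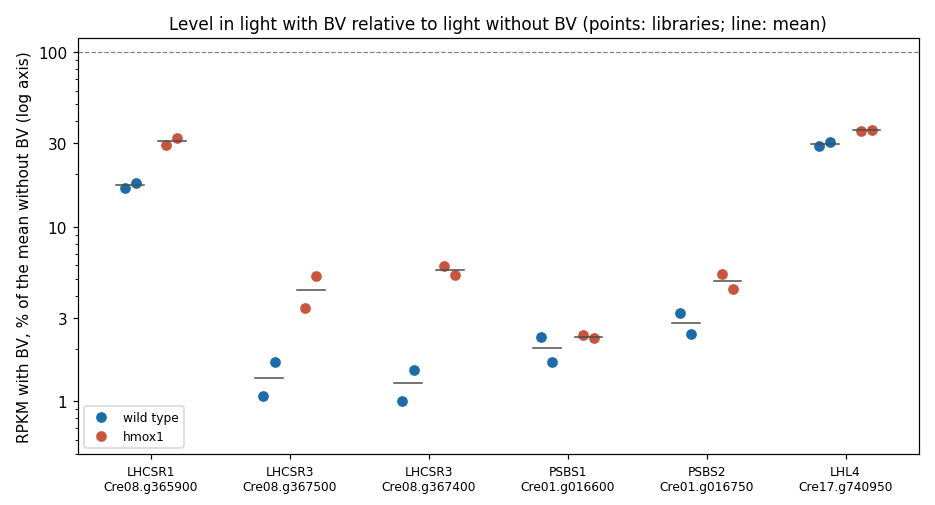
RPKM of each lit library with BV as a percent of the mean lit level without BV in the same strain, on a log axis, for the 6 genes in wild type (blue) and hmox1 (red). LHCSR1 and LHL4 keep 16.6% to 35.9% in single libraries, and the LHCSR3 and PSBS genes keep 1.01% to 5.95%.

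In the dark BV gave no call for any of the 6 in either strain with limma, nor with voom on the recovered reads. Of all genes tested, 5.47% were called in either direction in dark wild type and 0.322% in dark hmox1. At an unadjusted p under 0.05, LHL4 in wild type was the only 1 of the 6, at -0.23 ± 0.10 (adjusted p = 0.21). LHCSR1 stood at 1.87 and 0.617 RPKM in dark wild type with BV, against 3.83 and 1.72 without, so the libraries overlapped. In dark hmox1 it stood at 0.584 and 3.25 RPKM with BV against 3.17 and 6.04 without, which overlapped as well. Adjusted p of the 6 genes lay between 0.21 and 0.86 in wild type, and between 0.81 and 1 in hmox1. The largest log2 differences were those of LHCSR1, at -0.75 ± 0.49 in wild type and -1.06 ± 0.49 in hmox1. PSBS1 was at -0.71 ± 0.47 and -0.55 ± 0.47. On pooled reads the rate of LHCSR1 with BV was 0.405 (0.301 to 0.541) and 0.414 (0.32 to 0.53) of that without. The missing calls thus do not show that BV left these levels unchanged in the dark. Either LHCSR3 copy had 0 to 5 reads in each dark library, so the depth limits what these comparisons can show for them.

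The test of whether light acted differently with and without BV was passed by 5 of the 6 genes in wild type, where 9.17% of genes tested were called lower. The difference between the BV effect in light and in the dark was -5.42 ± 0.18 for Cre08.g367400 and -4.91 ± 0.17 for Cre08.g367500 (adjusted p = 1.3e-11 for each). It was -4.87 ± 0.66 for PSBS1 (adjusted p = 6.2e-04), -4.73 ± 0.44 for PSBS2 (adjusted p = 3.6e-05) and -1.52 ± 0.14 for LHL4 (adjusted p = 7e-07). For LHCSR1 it was -1.79 ± 0.70, which did not pass (adjusted p = 0.087). It passed with median-of-ratios scaling (-2.11, adjusted p = 0.035), without the mean trend and robust moderation (-1.79, adjusted p = 0.027), and without either replicate of dark hmox1 with BV (adjusted p = 0.035). In hmox1 the same 5 genes were called, where 6.83% of genes tested were called lower. The values were -3.58 ± 0.18 for Cre08.g367400 and -3.24 ± 0.17 for Cre08.g367500 (adjusted p = 1.6e-09 for each). PSBS1 was at -4.75 ± 0.66 (adjusted p = 0.0012), PSBS2 at -3.93 ± 0.44 (adjusted p = 2.2e-04) and LHL4 at -1.37 ± 0.14 (adjusted p = 3.9e-06). LHCSR1 at -0.64 ± 0.70 did not pass (adjusted p = 0.55). With a pseudocount of 0.1 in place of 1, which gives more weight to the few dark reads, the PSBS genes lost these calls in both strains. In wild type the differences were then -4.02 for PSBS1 (adjusted p = 0.063) and -3.99 for PSBS2 (0.054), and in hmox1 -4.12 (0.083) and -2.92 (0.17). With voom PSBS2 lost the call in hmox1 (-2.46, adjusted p = 0.17).

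**Figure D3:**
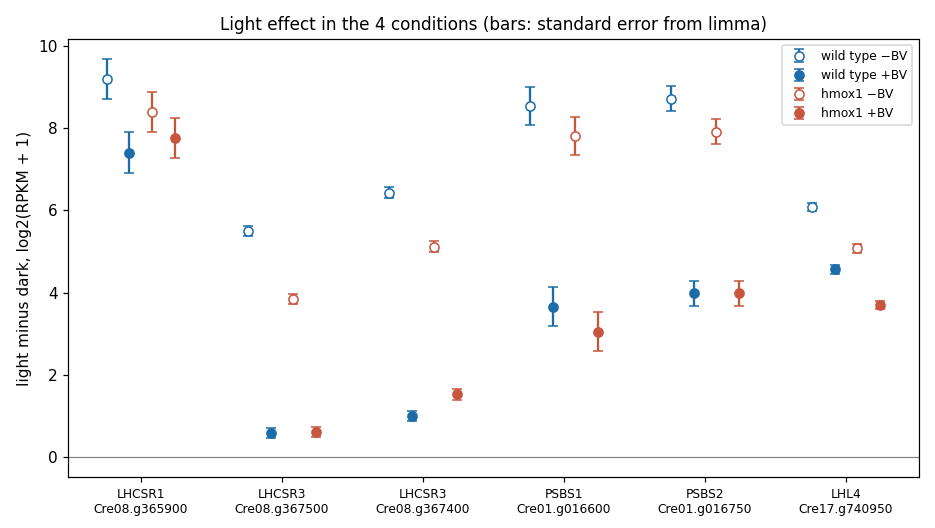
Light effect (light minus dark, log2(RPKM + 1)) of the 6 genes in wild type and hmox1 without BV (open) and with BV (filled); bars are standard errors from limma. In wild type the LHCSR3 and PSBS genes drop steeply from open to filled points, such as from 6.43 to 1.00 for Cre08.g367400, while LHCSR1 goes from 9.19 to 7.40.

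In the light without BV, the strains differed most for LHCSR3 among the 6 genes. In lit hmox1 without BV, Cre08.g367500 stood at 13.5 and 14.7 RPKM against 49.8 and 54.6 RPKM in wild type, and was lower by a log2 difference of -1.82 ± 0.12 (adjusted p = 5.5e-09). Cre08.g367400 stood at 39.8 and 40.3 RPKM against 122 and 121 RPKM, a log2 difference of -1.58 ± 0.13 (adjusted p = 7.9e-08). Among all genes tested these ranked 15th and 20th from the lowest. LHL4 was at 734 and 718 RPKM against 1107 and 1062 RPKM (-0.58 ± 0.10, adjusted p = 1.4e-04). These 3 of the 6 were called lower, where 7.72% of genes tested were. On the read rate, wild type was 3.58-fold higher (3.23 to 3.96) for Cre08.g367500, 3.03-fold (2.85 to 3.23) for Cre08.g367400 and 1.51-fold (1.49 to 1.53) for LHL4.

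LHCSR1 and the PSBS genes were also lower in both lit hmox1 libraries than in both wild-type libraries without BV, but were not called. The log2 differences were -0.22 ± 0.49 for LHCSR1 (adjusted p = 0.71), -0.76 ± 0.47 for PSBS1 (adjusted p = 0.19) and -0.58 ± 0.31 for PSBS2 (adjusted p = 0.13). Their errors are those of all 16 libraries, and the dark libraries varied most for these genes. When only the groups compared entered the fit, all 3 were called, at adjusted p of 0.0086 for LHCSR1, 2.7e-04 for PSBS1 and 9.6e-04 for PSBS2. Among alternatives chosen after the values were seen, the 8 light libraries alone gave 0.028, 0.0012 and 0.0054, and voom called PSBS1 (0.001) and PSBS2 (0.0032). With median-of-ratios scaling the PSBS genes were called as well, at -1.28 (adjusted p = 0.032) and -1.11 (adjusted p = 0.0078). That scaling called 4602 of the 13972 genes tested lower, against 1078 on the authors' scaling, so calls in this direction were common under it. With replicate 1 or replicate 2 of dark hmox1 with BV left out, the log2 difference of PSBS2 was -0.58.

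With BV in the light, 2 of the 6 were called between the strains, in opposite directions, where 61.4% of all genes tested were called in either direction. Cre08.g367400 was higher in hmox1, at 2.38 and 2.12 RPKM against 1.22 and 1.85 RPKM (0.37 ± 0.13, adjusted p = 0.022). This direction was not kept under quantile scaling, where the log2 difference was -0.04 (adjusted p = 0.76). The call was also lost with a pseudocount of 0.1, median-of-ratios scaling, only the groups compared, voom or summed copies (adjusted p from 0.062 to 0.56). It was kept in the fit of the 8 light libraries. LHL4 was lower in hmox1, at 257 and 260.3 RPKM against 313 and 331 RPKM (-0.31 ± 0.10, adjusted p = 0.012). Without replicate 1 of lit hmox1 with BV, neither was called, at adjusted p of 0.13 for Cre08.g367400 and 0.06 for LHL4. Leaving out wild-type replicate 1 ended the call of Cre08.g367400 (0.26), and leaving out wild-type replicate 2 that of LHL4 (0.065). LHCSR1 was at 532 and 584 RPKM in hmox1 against 352 and 374 RPKM in wild type, with no overlap, and was not called (0.62 ± 0.49, adjusted p = 0.31). In the fit of the 8 light libraries its adjusted p was 9.6e-05. That fit also called PSBS1 lower in hmox1 (-0.49, adjusted p = 0.013). With only the groups compared in the fit, the adjusted p was 2.9e-04 for LHCSR1 and 0.014 for PSBS1, and voom called LHCSR1 as well (0.02). Cre08.g367500 was not called on the authors' scaling (-0.09 ± 0.12, adjusted p = 0.51). It was called lower in hmox1 with median-of-ratios scaling (-0.28, adjusted p = 0.036) and with quantile scaling (-0.49, adjusted p = 0.0014).

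In the dark LHL4 was the 1 gene of the 6 called between the strains. Without BV it stood at 20.3 and 21.1 RPKM in hmox1 against 14.9 and 15.3 RPKM in wild type (0.43 ± 0.10, adjusted p = 0.0028). With BV it stood at 16.5 and 21.8 RPKM against 11.7 and 13.8 RPKM (0.54 ± 0.10, adjusted p = 3.4e-04). The groups did not overlap in either case, but how many of all genes tested did likewise was not counted. With the LHCSR3 copies summed to 1 feature, the sum was lower in hmox1 in the dark without BV (-0.37, adjusted p = 0.035), from at most 7 reads per library. Under quantile scaling Cre08.g367400 alone was called as well (-0.26, adjusted p = 0.037). LHL4 was thus higher in hmox1 in the dark and lower in hmox1 in the light. Genes called higher in hmox1 were 26.5% of those tested in the dark without BV and 30.3% with BV. The median gene was at 0.12 in each, and LHL4 ranked 2032nd without BV and 1515th with BV from the highest. Its higher level in dark hmox1 was thus not particular to it.

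Light raised LHL4 less in hmox1 than in wild type. The difference of the light effects was -1.01 ± 0.14 without BV (adjusted p = 8.4e-05) and -0.86 ± 0.14 with BV (adjusted p = 2.6e-04). The LHCSR3 copies also had smaller light effects in hmox1 without BV on this scale, by -1.66 ± 0.17 for Cre08.g367500 (adjusted p = 4.3e-06) and -1.32 ± 0.18 for Cre08.g367400 (adjusted p = 8.8e-05). These 3 of 6 calls stood where 7.27% of genes tested were called lower. For the LHCSR3 copies the result rested on the pseudocount, since the dark libraries held 0 to 5 reads. With a pseudocount of 0.1 the adjusted p was 0.2 and 0.45, and with voom on the recovered reads 0.55 and 0.46. PSBS2 was called with median-of-ratios scaling (-1.24, adjusted p = 0.036). As read rates, light raised Cre08.g367500 by 279-fold (109 to 1025) in wild type and by 199-fold (54.7 to 1643) in hmox1, and these intervals overlap.

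With BV present, the difference of light effects was 0.53 ± 0.18 for Cre08.g367400 (adjusted p = 0.033), so that 2 of 6 genes were called with LHL4, where 38.7% of genes tested were called in either direction. The call of Cre08.g367400 was lost without any 1 of 5 libraries, replicate 1 or replicate 2 of dark wild type, replicate 1 of lit wild type, and replicate 1 of dark or lit hmox1, all with BV (adjusted p from 0.067 to 0.16). It was also lost with a pseudocount of 0.1, with either other scaling, with only the groups compared and with voom (adjusted p from 0.057 to 0.54). Cre08.g367500 had no call (0.01 ± 0.17), but was called at -0.40 with quantile scaling (adjusted p = 0.048) and, with the copies summed, at 0.49 (adjusted p = 0.045). The effect of BV in the light was smaller in hmox1 than in wild type for the LHCSR3 copies, by 1.94 ± 0.18 for Cre08.g367400 (adjusted p = 3.8e-06) and 1.72 ± 0.17 for Cre08.g367500 (adjusted p = 5.4e-06). These 2 of the 6 were called, where 2.45% of genes tested were called in that direction. With a pseudocount of 0.1 the differences were 2.14 and 1.68, with adjusted p of 0.083 and 0.094. For LHCSR1 the difference was 0.84 ± 0.70 (adjusted p = 0.54), and with only the groups compared, the 8 light libraries, it was called (adjusted p = 0.0012). In the dark, the effect of BV gave no call between the strains for the 6 genes with limma or with voom, where 0.938% of genes tested were called in either direction, and none of the 6 had an unadjusted p under 0.05.

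Across the 8 groups the order of the mean levels was alike at the top. Each of the 6 genes was highest in lit wild type without BV and next in lit hmox1 without BV, and the libraries of these groups did not overlap. Of all genes tested, 14.0% likewise had both lit hmox1 libraries below both lit wild-type libraries without BV. LHCSR1 and Cre08.g367400 came next in lit hmox1 with BV and then lit wild type with BV, with no overlap. PSBS1 and LHL4 had the reverse order of these groups, also with no overlap. For PSBS2 and Cre08.g367500 the lit groups with BV overlapped. How many of all genes tested lacked overlap between the lit groups with BV was not counted, and 61.4% were called between them in either direction. Under quantile scaling Cre08.g367400 had the lit groups with BV in the reverse order. Among dark groups, neighbours in the order overlapped for LHCSR1, PSBS1 and PSBS2. Over the 8 lit libraries, levels of each pair of the 6 genes had a Pearson correlation of 0.93 to 0.995 on the log2(RPKM + 1) scale, given as a description since these libraries share the BV contrast.

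The dark libraries differed in an order that LHCSR1 and the PSBS genes partly shared. LHCSR1 was highest in hmox1 without BV replicate 2, at 6.04 RPKM, and lowest in hmox1 with BV replicate 1, at 0.584 RPKM. PSBS1 was highest in the same library, at 2.35 RPKM from 37 reads, and lowest in wild type with BV replicate 2, at 0.11 RPKM from 2 reads. PSBS2 was highest there too, at 1.16 RPKM from 28 reads, and had 0 reads in hmox1 with BV replicate 1, where 3 reads would be worth 0.265 RPKM. The replicates of dark hmox1 with BV, at 0.584 and 3.25 RPKM, had the largest ratio between replicates for LHCSR1 among the dark groups. LHL4 kept another order, with 21.8 RPKM in hmox1 with BV replicate 2 as the highest and 11.7 RPKM in wild type with BV replicate 1 as the lowest.

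**Figure D4:**
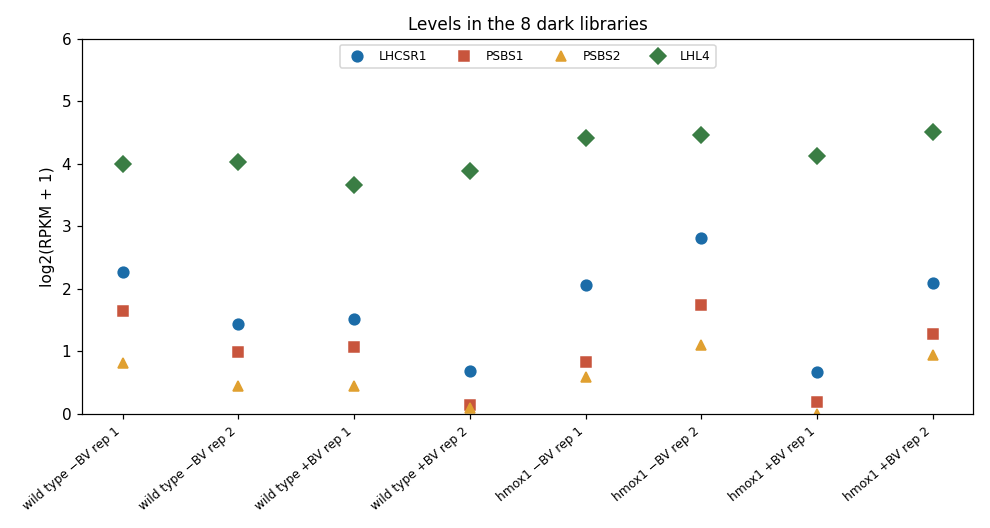
Levels of LHCSR1, PSBS1, PSBS2 and LHL4 in the 8 dark libraries, as log2(RPKM + 1), 1 point per gene and library. LHCSR1, PSBS1 and PSBS2 are each highest in hmox1 without BV replicate 2, while LHL4 lies between 11.7 and 21.8 RPKM in all 8.

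The PSBS genes did not keep a fixed ratio over the lit libraries. PSBS1 was 1.41 and 1.44 times PSBS2 in the lit wild-type libraries without BV, and 1.04 and 0.982 times PSBS2 with BV. In lit hmox1 the ratio was 1.29 and 1.23 without BV, and 0.566 and 0.659 with BV. In both strains the ratio was thus lower in each library with BV than in each library without. This ratio was chosen after its values were seen, so it is given with no test. Cre08.g367400 was 2.45 and 2.21 times Cre08.g367500 in lit wild type without BV, and 2.95 and 2.74 times in lit hmox1 without BV. With BV the ratio was 2.18 and 2.12 in wild type and 4.91 and 2.9 in hmox1, where Cre08.g367500 had 5 and 12 reads. Here the libraries with and without BV overlapped in their range over both strains. How reads that match both copies were treated is unknown here, so the level of a single copy is uncertain. With the copies of a pair summed to 1 feature, all light effects and BV effects in the light stayed called.

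**Figure D5:**
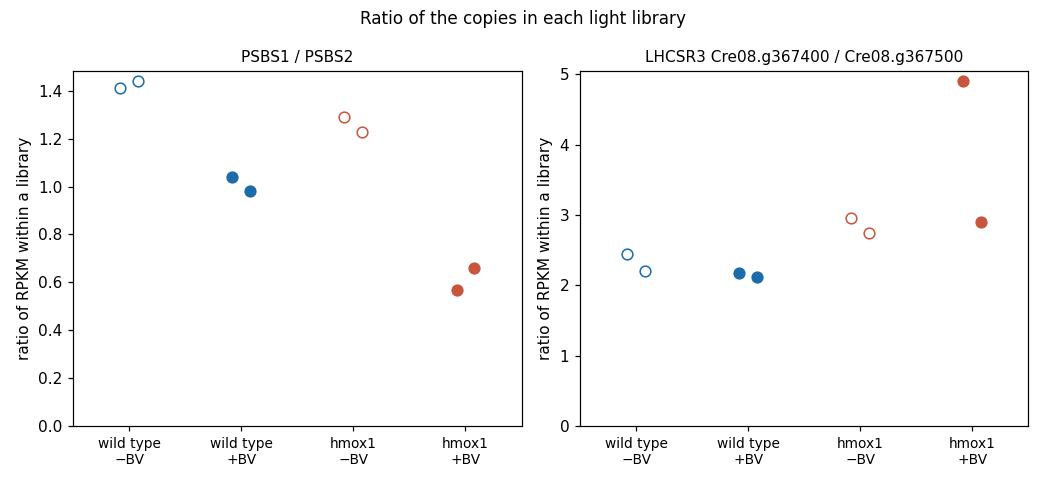
Ratio of RPKM of PSBS1 to PSBS2 (left) and of the LHCSR3 copies Cre08.g367400 to Cre08.g367500 (right) in the 8 lit libraries; points are libraries, open without BV and filled with BV. The PSBS ratio lies at 1.23 to 1.44 without BV and at 0.566 to 1.04 with BV.

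Per length, the levels of LHCSR1 and LHL4 lay closer together with BV than without in lit wild type. The level of LHCSR1 was 1.93 and 1.97 times that of LHL4 in lit wild type without BV and 1.13 and 1.13 times with BV. In lit hmox1 it was 2.41 and 2.58 times without BV and 2.07 and 2.24 times with BV. LHCSR1 stood 17.5 and 17.4 times above Cre08.g367400 in lit wild type without BV, and 287 and 202 times above it with BV.

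The genes with the pattern most like these, by Pearson correlation of log2(RPKM + 1) over the 16 libraries among 8511 genes, have no name in the sources used here. Nearest to LHCSR1 was Cre08.g384650 (r = 0.993), with mean levels of 1.38 RPKM in dark and 401 RPKM in lit wild type without BV and 72.2 RPKM in lit wild type with BV. Next was Cre01.g040500 (r = 0.992), which moved over a smaller range, from 13.5 to 44.3 and 30.5 RPKM. Nearest to the mean of the LHCSR3 copies were Cre03.g188650 and Cre16.g677800 (r = 0.993 each). Cre03.g188650 stood at 4.26 RPKM in dark wild type, 45.0 RPKM in lit wild type and 7.8 RPKM in lit wild type with BV. Nearest to the mean of the PSBS genes were Cre13.g587500 (r = 0.995) and Cre09.g395650 (r = 0.993). The latter stood at 25.6, 194 and 63.6 RPKM in the same 3 groups. All of these genes were thus higher in the light and lower in the light with BV, with smaller ranges than the genes they resemble, and the light contrast runs through all 16 points of each correlation.

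In the RefSeq assembly Chlamydomonas_reinhardtii_v5.5, the LHCSR3 copies are adjacent with 0 annotated genes between them, the PSBS genes have 2 genes between them, and 32 genes lie between LHCSR1 and the nearer LHCSR3 copy. Of 18 genes next to the 6 (2 on each side and those between copies), 12 were tested. In wild type without BV, 7 of these were called higher and 4 lower with light, with log2 differences from -2.59 to 2.95. Of all 13972 genes tested, 2919 were called higher and 8811 lower. Cre08.g365950, next to LHCSR1, had the largest rise of these, from 2.64 to 27.2 RPKM, and Cre08.g367550, next to the LHCSR3 copies, fell from 56.8 to 8.58 RPKM. With BV in lit wild type, 4 of the 12 were called lower and 2 higher, with log2 differences from -0.82 to 0.84. Of all genes tested, 1814 were called lower and 4562 higher. The neighbours' differences with BV were thus all smaller in size than those of the 6 genes, of which the smallest was -1.75 for LHL4.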

How the data were processed

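The authors deposited 1 table of RPKM values for 17301 genes and 16 libraries of single-end reads of 100 nt, sequenced on a HiSeq instrument, per the labels' protocols. Its header names no unit, which was taken from the values. Bowtie was used, per the submitters' processing notes. The sources used here give neither its version nor the genome build, gene models, strand use or handling of reads that match several genes.

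Whole reads were recovered from the RPKM steps for 16851 of the 16852 genes above 0 (tolerance 0.1 reads; 99.87% of values lay within 0.01). The recovery was tested on simulated data of 3996 genes, of which 98.72% had their reads returned. For a gene of 2 kb, 3 reads are worth 0.147 RPKM in the shallowest library and 0.0346 RPKM in the deepest. Intervals are exact binomial intervals at 95% on pooled reads.

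limma 3.58.1 in R 4.3.3 was run on log2(RPKM + 1) of genes that reached 1 RPKM in at least 2 libraries, with 1 mean per group and robust moderation with a mean trend (8 residual degrees of freedom). There were 18 comparisons, 12 of groups and 6 of effects, each adjusted by Benjamini-Hochberg. The model was also tested on simulated data. Alternatives were the pseudocount, the filter, the scaling, the moderation, the libraries fitted, a block, each library left out, copies summed and voom. The 6 genes and the lists were chosen with earlier results of these data known. All 6 are named in each comparison. The genes of like pattern are the 2 most correlated per pattern among tested genes with a highest group mean of at least 5 RPKM and a recovered length of at least 300 nt. Of the table's identifiers, 12666 (73.2%) matched RefSeq locus tags, all 6 among them. Lists of similar proteins and of other pathway genes were planned and not made, because no protein sequences or gene names were at hand. No sequence is printed for the same reason.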

Additional observations from a re-analysis of the deposited data

Results flagged for a closer look

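The results below were picked because the effect of 1 factor differed with another by a test of the difference itself (limma with Benjamini-Hochberg adjustment, adjusted p under 0.05). The effect of BV was more negative in the light than in the dark in wild type, by -4.91 for Cre08.g367500, -5.42 for Cre08.g367400, -4.87 for PSBS1 (Cre01.g016600), -4.73 for PSBS2 (Cre01.g016750) and -1.52 for LHL4 (Cre17.g740950) on the log2(RPKM + 1) scale. In hmox1 the same differences were -3.24, -3.58, -4.75, -3.93 and -1.37. The light effect was smaller in hmox1 than in wild type without BV, by -1.66 for Cre08.g367500, -1.32 for Cre08.g367400 and -1.01 for LHL4. With BV it differed by 0.53 for Cre08.g367400 and by -0.86 for LHL4. The effect of BV in the light was less negative in hmox1 for both LHCSR3 copies, by 1.72 for Cre08.g367500 and 1.94 for Cre08.g367400. The values of the LHCSR3 copies rest on dark libraries with 0 to 5 reads where the dark enters the difference. With a pseudocount of 0.1, the PSBS genes lost their calls of BV by light in both strains. The LHCSR3 copies then lost all their calls listed here for strain by light and for strain by BV. With voom the LHCSR3 copies lost those for strain by light, and PSBS2 lost BV by light in hmox1.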

How the results depend on the processing

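Entries counted here are 1 gene in 1 comparison under 1 alternative. They are not independent, and leaving out a library outside a comparison leaves its difference unchanged. All light effects of the 6 genes stayed called in the same direction in each of 592 entries, and the BV effects in the light in 303 of 308. The other 5 were LHCSR1 in hmox1, with a pseudocount of 0.1 (adjusted p = 0.12) or without any of the 4 libraries compared. Counts of the 6 genes called moved by more than 1.5 times in strain comparisons and differences of effects, and the cause was not tested. Numbers of all genes called are set beside these counts for the other scalings only, so the remaining counts lack that background. With a pseudocount of 0.1 the count was 1 against 2 for the strain in the light with BV, 3 against 5 for BV by light in each strain, 1 against 3 and 1 against 2 for strain by light without and with BV, and 0 against 2 for strain by BV in the light. With median-of-ratios scaling it was 5 against 3 for the strain in the light without BV, where 4602 of all genes were called lower, against 1078. It was 1 against 2 for strain by light with BV, where 2235 genes were called higher and 3412 lower, against 3893 and 1521. Quantile scaling gave 2 against 1 for the strain in the dark without BV. All genes called there were 2455 higher and 2321 lower, against 3707 and 1186. With only the groups compared the count of the 6 was 6 against 3 for the strain in the light without BV. It was 1 against 2 for strain by light with BV. With voom on recovered reads, added after the data were seen, it was 5 against 3, 1 against 3 for strain by light without BV and 1 against 2 with BV. The 8 light libraries alone, also added later, gave 6 against 3 and 4 against 2 for the strain in the light without and with BV. Leaving out 1 library gave 0 to 2 for the strain in the light with BV and 1 to 2 for strain by light with BV. Under quantile scaling Cre08.g367400 reversed to -0.04 for the strain in the light with BV, and Cre08.g367500 to -0.40 (adjusted p = 0.048) for strain by light with BV. The order of 7 neighbouring group pairs had 6 kept for Cre08.g367400 and PSBS1 under quantile scaling, and for PSBS1 and PSBS2 under median-of-ratios scaling.

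With the replicate number as a block (replicate block), the count of genes called was 6 for BV in the light in each strain and 3 for the strain in the light without BV, as without it, and no call of the 6 genes changed. Deviations of same-numbered libraries had correlations from -0.152 to 0.272 over 28 pairs of groups, 10 of them over 0.1, so the numbers were not taken as pairing libraries. Of 1195 entries (gene, comparison and alternative) for differences that were not called, 30 were called and 62 changed sign without a call. Genes with a similar protein were not tested, as that list was not made. Depth limits the LHCSR3 copies in the dark, at 0 to 5 reads per library.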
